A study of Saccharomyces cerevisiae with 12 samples.

Results

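The comparison set wild type cells of the budding yeast Saccharomyces cerevisiae that had grown overnight with little oxygen against wild type cells that had grown in air. It used 4 of the 12 arrays of the study, chosen by their titles, with 2 arrays in hypoxia and 2 in air, lettered A and B in each group, and it took in all 5974 open reading frame (ORF) probes on them. Both groups were the laboratory strain BY4741 of the EUROSCARF collection, which carries deletions in HIS3, LEU2, MET17 and URA3, and both grew at 30 C in a synthetic complete medium holding 2% glucose. The hypoxia cultures stood overnight in sealed jars with oxygen below 1%, and their medium also held 20 mg/l of ergosterol and 0.5% Tween 80, which the air medium is not described as holding. Low oxygen, these lipids and growth in jars therefore cannot be told apart here. The design text speaks of biological and of technical replicates, and no label says which of these A and B are. Each p-value therefore reflects the spread among arrays, which may be technical. Of the other arrays, the 4 labelled ixr1 null in the same conditions serve below as arrays that share none with the wild type comparison. Their strain is BY4741 with the IXR1 gene deleted according to the labels. A comparison of the 2 wild type arrays of a 3 hour shift from air to nitrogen shares its 2 air arrays with this one.

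Yeast needs molecular oxygen to respire and also to make heme, sterols and unsaturated fatty acids. Heme acts as its oxygen signal: with heme present the activator Hap1 drives respiratory genes and ROX1, whose product keeps hypoxic genes off, and without heme that repression is lifted. Cells without oxygen take up sterol from the medium, draw on lipids such as the oleate in Tween 80, and exchange part of their wall mannoproteins for the Dan, Tir and Pau proteins.

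Total RNA had been copied from its poly(A) tails into cDNA with a 32P label, and each probe gave 1 radioactive intensity per array on a scale averaging close to 1. Exact zeros, read as not detected, numbered 403 and 257 of the probes on hypoxia arrays A and B, and 316 and 647 on air arrays A and B. Across 4969 ORFs with a value on all 4 arrays, Spearman's rho was 0.924 between the hypoxia arrays, 0.838 between the air arrays and 0.549 to 0.576 between a hypoxia and an air array. The values given below are quantile-normalized intensities, in the order array A, array B. Differences are log2 hypoxia minus air ± SE with 2 arrays a group, tested with limma, and a gene is said to have risen or fallen where its p-value, adjusted by Benjamini-Hochberg over all ORFs tested, was under 0.05. The spread of an ORF was estimated within all 6 groups of the 12 arrays, so that a gene may miss the threshold for its scatter elsewhere. After a count of 0, the number in brackets is that of members past an unadjusted limma p under 0.05 in the same direction. A fold is given only for an ORF whose deposited value on all 4 arrays was at or above the 10th percentile of the positive values and below 90% of the brightest value of its array. For other ORFs, with a dim or near-brightest signal on at least 1 array, the signals and the adjusted p stand alone. Where leaving out an array or another setting of the processing ended the call of a named gene, the text says so beside it. Calls gained that way are mostly not marked beside the gene and are counted at the end.

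Of 4969 ORFs tested, 593 passed, or 11.9%, of which 253 rose (5.09%) and 340 fell (6.84%). Counts of the gene lists below stand against these shares of all ORFs. The hypoxia and air signals of all 593 did not overlap, and 362 of them, 182 higher and 180 lower, were measured firmly enough for a fold. The median difference over all ORFs was 0.01. The median among ORFs that rose was 3.41 and among those that fell -3.90, so that the changes called were large, and the smallest fold to pass was 3.10. The median gap between replicates of 1 ORF was 0.436 log2 units between the hypoxia arrays and 0.496 between the air arrays. Calls varied with the signal in air: of the 10% of ORFs brightest in air 26.6% fell and 0.805% rose, and of the dimmest 10% 0 of 497 fell and 13.5% rose. Its part in the counts below was not tested, and the air signal is itself one side of each difference. On the deposited values the median difference of all ORFs was 0.14. Without one of the arrays the count was 374 (hypoxia A), 357 (hypoxia B), 379 (air A) or 442 (air B).

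**Figure D1:**
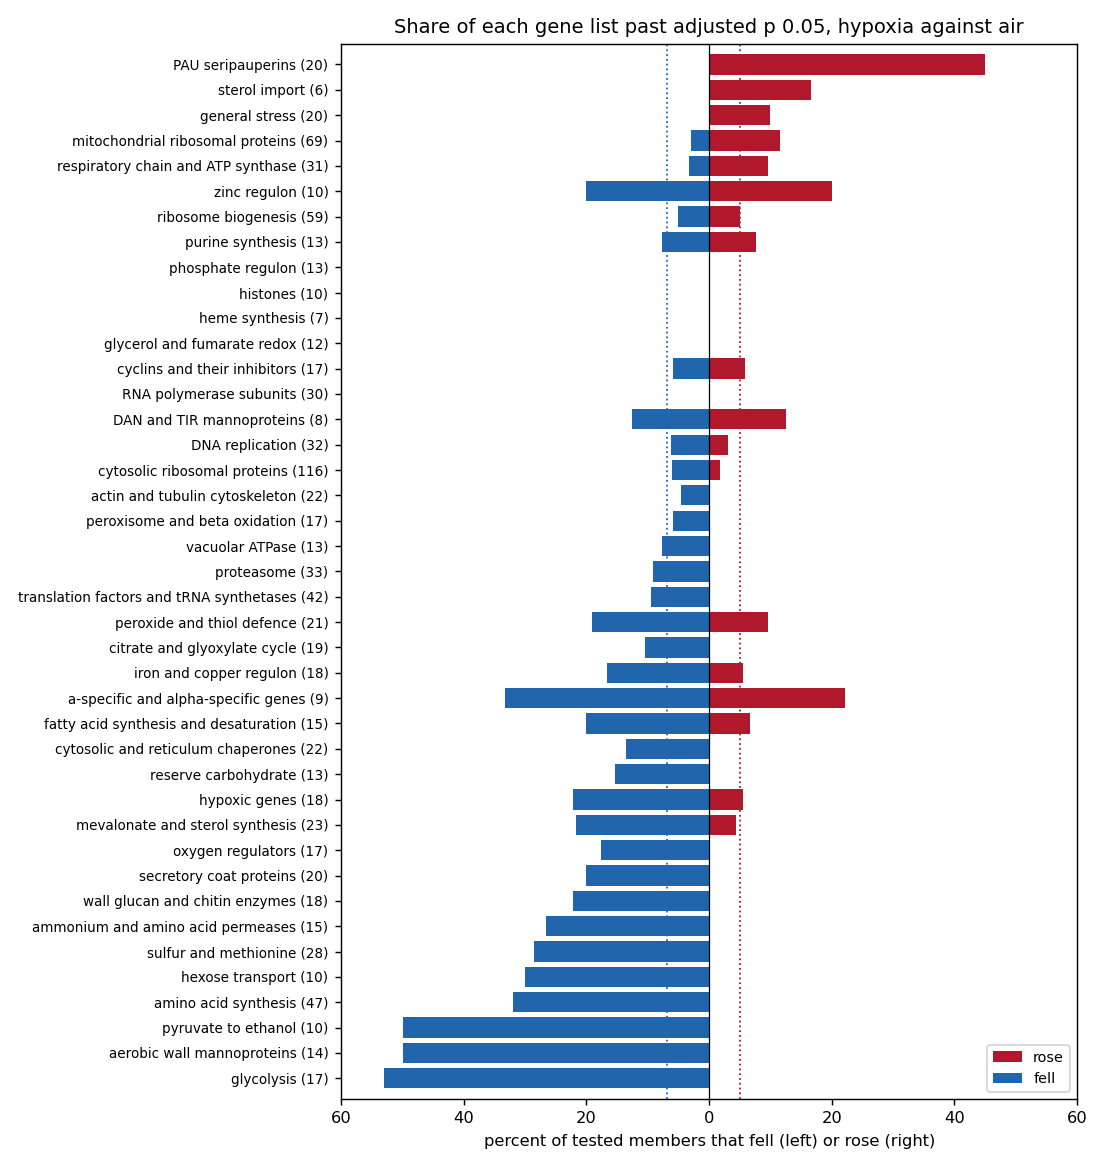
Percent of the tested members of each gene list that rose (red, to the right) or fell (blue, to the left) in wild type hypoxia against air, with the number tested in brackets and dotted lines at 5.09% and 6.84%, the shares of all ORFs. The seripauperins extend farthest to the right, with 9 of 20 members, and glycolysis farthest to the left, with 9 of 17.

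The anaerobic wall genes did not move as 1 block. Among the seripauperins, a family of small serine-rich proteins made at low oxygen, 9 of 20 tested members rose and 0 fell (1 unadjusted), against 5.09% and 6.84% of all ORFs. Their median difference was 1.74 against 0.01 for all ORFs. PAU12 read 2.02 and 2.03 in hypoxia and 0.399 and 0.406 in air, a rise of 5.03-fold (2.33 ± 0.59, adjusted p = 0.0265). PAU5 read 1.71 and 1.82 in hypoxia and 0.270 and 0.463 in air, higher in hypoxia by 2.32 ± 0.51 (adjusted p = 0.0130). Hypoxia replicates of both genes lay close together and well above both air arrays. PAU7 rose at 1.07 and 1.03 in hypoxia and 0.0417 and 0.0764 in air (adjusted p = 0.000319), its air signals being dim. PAU2 read 1.16 and 1.49 in hypoxia and 0.0373 and 0.186 in air (adjusted p = 0.00344) and PAU3 read 0.777 and 0.861 in hypoxia and 0.0404 and 0.110 in air (adjusted p = 0.00690). The others that rose, by 3.31-fold (PAU4) to 4.35-fold (PAU6), were PAU4, PAU6, PAU11 and PAU14. PAU18 (1.53 ± 0.47, adjusted p = 0.0703) and PAU13 (1.50 ± 0.48, adjusted p = 0.0818) were above air without passing, and PAU17, PAU19 and PAU21 were the 3 of 20 below it. Members of this family are close in sequence, so 1 messenger may light several probes, and the 9 rises are not 9 separate observations. The count fell to 3 without hypoxia array A, 2 without hypoxia array B and 4 without either air array, and PAU7 was the member that kept its call under every alternative run.

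DAN1, which encodes a cell wall mannoprotein of anaerobic cells and stands for the Dan and Tir group, read 1.36 and 3.69 in hypoxia and 0.0538 and 0.113 in air. Both hypoxia values exceeded both air values by over 10 times, and DAN1 rose 28.7-fold (4.84 ± 0.80, adjusted p = 0.00465). TIR1, another mannoprotein of that group and also a cold shock gene, fell, with 0.0343 and 0.0547 in hypoxia and 0.783 and 0.962 in air (adjusted p = 0.00235), 1 of its hypoxia signals being below the 10th percentile. TIR2 read 1.69 and 4.10 in hypoxia and 0.156 and 0.710 in air, above air on both arrays without passing (2.99 ± 1.08, adjusted p = 0.125). Of the 8 listed DAN and TIR genes, 2 of which are also counted as PAU23 and PAU24, 1 rose and 1 fell, and this held without any 1 of the arrays. DAN1 and TIR1 lost their calls with zeros kept at a floor.

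Of 14 abundant wall mannoproteins of aerobic cells that were tested, 7 fell and 0 rose (0 unadjusted), and their median difference was -2.55. All 7 were among the 11 members in the brightest 10% of air signals, where 26.6% of all ORFs fell. CCW12, a small protein bound covalently to the wall, read 0.465 and 0.572 in hypoxia and 73.2 and 57.3 in air, a fall of 126-fold (-6.97 ± 0.52, adjusted p = 9.39e-05). SED1, a stress-induced wall glycoprotein, read 0.198 and 0.136 in hypoxia and 19.1 and 9.23 in air and fell 80.7-fold (-6.33 ± 0.54, adjusted p = 0.000104). In both, each air array lay far above each hypoxia array. HSP150, a secreted O-mannosylated protein with internal repeats of the Pir kind, read 0.0494 and 0.0998 in hypoxia and 16.7 and 15.4 in air (adjusted p = 6.45e-05). Among the others that fell, PIR1 did so by 107-fold, TIP1 by 29.3-fold and CWP2 by 14.0-fold, with PIR3 at 0.0217 and 0.0263 in hypoxia and 7.52 and 4.87 in air. The remaining 7 did not pass. CIS3, also of the Pir kind, read 1.23 and 1.07 in hypoxia and 3.01 and 2.33 in air (-1.21 ± 0.55, adjusted p = 0.229), and SPI1, a wall protein of stressed cells, was above air at 5.18 and 4.83 in hypoxia and 0.931 and 1.13 in air (2.28 ± 1.12, adjusted p = 0.271).

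Enzymes that build and remodel wall glucan followed in smaller number. Of 18 tested, 4 fell and 0 rose (1 unadjusted), where 6.84% of all ORFs fell. SCW4, a glucanase-like wall protein, read 0.455 and 1.02 in hypoxia and 15.1 and 14.4 in air, 21.7-fold lower in hypoxia (-4.44 ± 0.66, adjusted p = 0.00137), and the major wall glucanase BGL2 read 0.0465 and 0.110 in hypoxia and 8.80 and 6.20 in air (adjusted p = 6.91e-05). CTS1, the chitinase that parts mother and daughter cells, read 0.0853 and 0.0594 in hypoxia and 1.66 and 0.914 in air and fell 17.3-fold (-4.11 ± 0.85, adjusted p = 0.00876). GAS1, a glucan elongase of the wall, was at -2.15 ± 0.63 (adjusted p = 0.0577) and CHS2, the septum chitin synthase, at 2.21 ± 0.84 (adjusted p = 0.144), neither passing. CTS1 lost its call without hypoxia array B or air array A and under 2 other settings. PSA1 makes GDP-mannose, the sugar donor for mannoproteins. It read 0.0896 and 0.0673 in hypoxia and 7.39 and 5.01 in air and fell 78.4-fold (-6.29 ± 0.46, adjusted p = 5.51e-05).

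**Figure D2:**
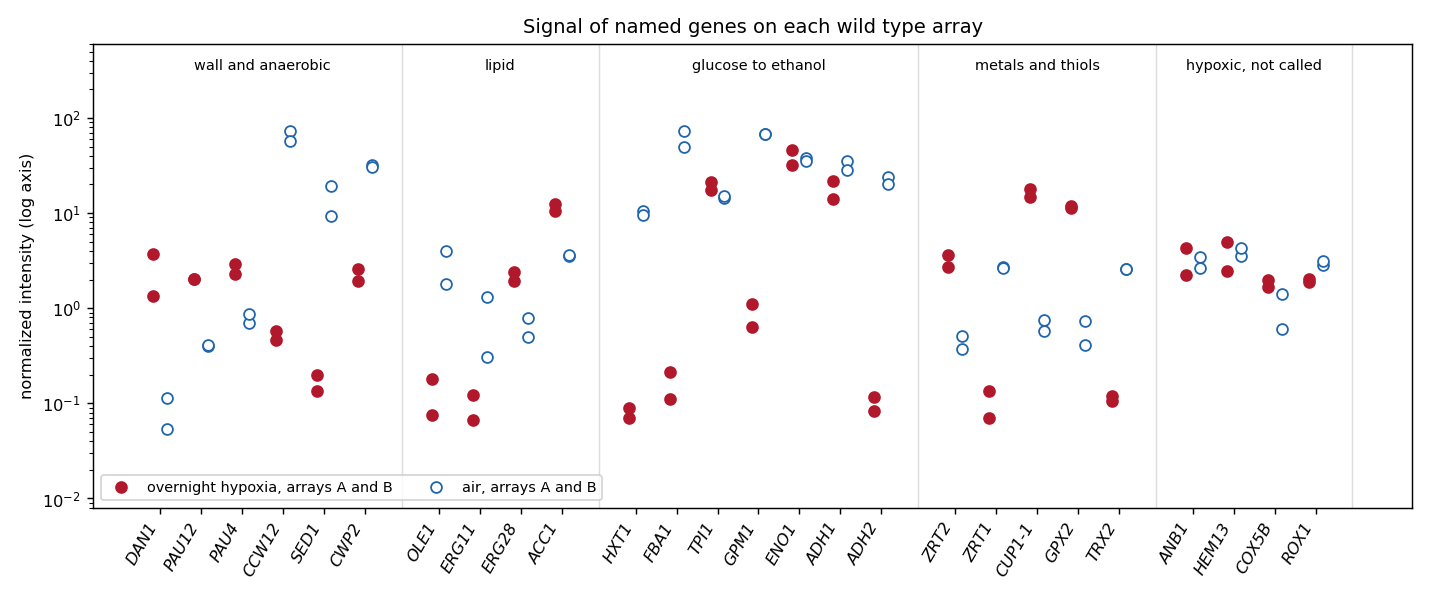
Quantile-normalized intensity (log axis) of named genes on each wild type array, with hypoxia arrays as filled red points left of the open blue points for air. Hypoxia and air points are apart for DAN1, CCW12, OLE1, HXT1 and CUP1-1, and they interleave for ANB1 and HEM13.

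Sterol synthesis consumes oxygen at several steps, and the hypoxia medium supplied ergosterol, whose part was not tested. Of 23 sterol pathway genes tested, 5 fell and 1 rose, against 6.84% and 5.09% of all ORFs, with a median of 0.27. ERG11, the heme-dependent lanosterol demethylase, read 0.122 and 0.0662 in hypoxia and 1.31 and 0.307 in air, with air arrays that differed by over 4 times between themselves, and fell 7.05-fold (-2.82 ± 0.76, adjusted p = 0.0364). ERG10, the acetoacetyl-CoA thiolase at the entry to the pathway, read 0.114 and 0.107 in hypoxia and 1.01 and 0.903 in air, 8.65-fold lower in hypoxia (-3.11 ± 0.75, adjusted p = 0.0238). ERG1, the squalene epoxidase, at 0.0379 and 0.107 in hypoxia and 0.852 and 0.759 in air (adjusted p = 0.00366) and ERG4, the last reductase, at 0.0731 and 0.0309 in hypoxia and 0.293 and 0.433 in air (adjusted p = 0.0116) fell to dim signals. ERG28, which encodes a scaffold of the demethylation enzymes, was the exception at 1.93 and 2.42 in hypoxia and 0.502 and 0.793 in air, a rise of 3.42-fold (1.78 ± 0.48, adjusted p = 0.0376). Other steps did not pass. ERG3, an oxygen-using desaturase, was at 1.57 ± 0.61 (adjusted p = 0.148) and IDI1, the isopentenyl diphosphate isomerase, at 1.01 ± 0.51 (adjusted p = 0.294). ERG28 lost its call without any 1 of the 4 arrays and under 3 other settings, ERG1 did so with zeros kept at a floor, ERG4 without hypoxia array B or air array B and under 1 other setting, ERG10 without any 1 of the 4 arrays and under 1 other setting, and ERG11 without hypoxia array A or B or air array A and under 6 other settings. Over the pathway, leaving out 1 array left 1 or 2 falls and 0 rises.

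Sterol uptake showed DAN1 as its 1 rise among 6 tested genes. AUS1, a transporter that imports sterol in anaerobic cells, read 0.206 and 0.101 in hypoxia and 0.0645 and 0.0624 in air (1.19 ± 0.66, adjusted p = 0.360). PDR11, a second such transporter, read 0.113 and 0.0136 in hypoxia and 0.404 and 0.146 in air (-2.63 ± 0.95, adjusted p = 0.135). Neither passed, and each had at least 1 signal below the 10th percentile.

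In fatty acid synthesis 3 of 15 genes fell and 1 rose, against 6.84% and 5.09% of all ORFs. OLE1, the oxygen-requiring desaturase that makes oleate and palmitoleate, read 0.0754 and 0.180 in hypoxia and 3.99 and 1.82 in air, a fall of 23.1-fold (-4.53 ± 0.59, adjusted p = 0.000639). This is a gene usually raised by low oxygen and lowered by unsaturated fatty acids, and the hypoxia medium held Tween 80. Low oxygen and the lipids cannot be told apart here, and the cause of this fall was not tested. FAS2, the fatty acid synthase subunit, read 0.0277 and 0.0471 in hypoxia and 1.15 and 1.55 in air (adjusted p = 0.00134), and ACB1, the acyl-CoA binding protein, read 0.0970 and 0.391 in hypoxia and 1.88 and 1.90 in air and fell 9.68-fold (-3.28 ± 0.62, adjusted p = 0.00527). ACC1, the acetyl-CoA carboxylase that feeds the synthase, rose 3.19-fold at 12.5 and 10.5 in hypoxia and 3.53 and 3.64 in air (1.67 ± 0.45, adjusted p = 0.0368). ACP1, the mitochondrial acyl carrier, was at -1.26 ± 0.47 (adjusted p = 0.130), and MGA2, the membrane-bound activator of OLE1, at 2.10 ± 0.79 (adjusted p = 0.134). ACB1 lost its call in a fit of these 4 arrays alone, and ACC1 did so without any 1 of the 4 arrays and under 2 other settings. Of 17 peroxisomal and beta oxidation genes, which burn such fatty acids in air, PEX10, a ubiquitin ligase of peroxisomal protein import, fell 15.6-fold at 0.617 and 0.536 in hypoxia and 11.3 and 7.14 in air (-3.97 ± 0.48, adjusted p = 0.000460) and 0 rose (1 unadjusted). PXA2, a peroxisomal fatty acyl transporter, was at 3.39 ± 0.97 (adjusted p = 0.0533), without passing. In this peroxisomal list 5.88% were called, against 11.9% of all ORFs.

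Classical hypoxic genes showed 1 rise and 4 falls among 18 tested, against 5.09% and 6.84% of all ORFs, with a median of -0.04. Those 5 were DAN1, TIR1, OLE1, ERG11 and ADH5, an alcohol dehydrogenase isozyme that read 0.179 and 0.234 in hypoxia and 4.84 and 8.87 in air and fell 32.0-fold (adjusted p = 0.000608). The textbook markers of heme loss did not pass. ANB1, the hypoxic gene for translation factor eIF5A, read 2.25 and 4.32 in hypoxia and 2.65 and 3.42 in air, and HEM13, the oxygen-using coproporphyrinogen oxidase of heme synthesis, read 2.45 and 4.97 in hypoxia and 3.58 and 4.35 in air. In both genes the hypoxia arrays differed more from each other than their mean did from air (0.05 ± 0.51 and -0.18 ± 0.48). COX5B, the hypoxic cytochrome oxidase subunit, read 1.68 and 1.99 in hypoxia and 1.40 and 0.610 in air (0.99 ± 0.65, adjusted p = 0.449), and CYC7, the hypoxic cytochrome c, read 0.185 and 0.153 in hypoxia and 0.0971 and 0.106 in air (0.73 ± 0.47, adjusted p = 0.440). Both had all hypoxia values above all air values by less than the test required. Missing the threshold does not show that these 4 stayed level. AAC3, the anaerobic mitochondrial ADP/ATP carrier, was at 0 on both air arrays and had deposited values of 0.267 and 0.347 in hypoxia, and it belongs to the ORFs found in hypoxia alone that are described below. Without hypoxia array A, hypoxia array B or air array A the falls numbered 3.

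Among 17 tested regulators of oxygen-responsive genes 3 fell and 0 rose (1 unadjusted), where 6.84% of all ORFs fell. IXR1 encodes an HMG-box protein that acts on several hypoxic genes, and its deletion is what the study's other strain is labelled with. It read 0.417 and 0.349 in hypoxia and 9.69 and 7.29 in air, 22.0-fold lower in hypoxia (-4.46 ± 0.48, adjusted p = 0.000266), with no overlap. HAP2, a subunit of the activator complex of respiratory genes, read 0.441 and 0.649 in hypoxia and 3.25 and 3.15 in air and fell 5.99-fold (-2.58 ± 0.59, adjusted p = 0.0157), and SKN7, a stress regulator, fell to a dim signal at 0.0712 and 0.0126 in hypoxia and 0.583 and 0.783 in air (adjusted p = 0.00327). ROX1 read 1.87 and 2.02 in hypoxia and 2.87 and 3.13 in air, both hypoxia values being lower, but did not pass (-0.63 ± 0.42, adjusted p = 0.456), and HAP1 read 3.22 and 4.55 in hypoxia and 2.94 and 3.77 in air (0.20 ± 0.56, adjusted p = 0.898). TUP1, the corepressor that works with Rox1, was at -2.31 ± 0.69 (adjusted p = 0.0569). HAP2 lost its call without any 1 of the 4 arrays, and SKN7 did so in a fit of these 4 arrays alone. In heme synthesis 0 of 7 genes passed (0 higher and 2 lower unadjusted), HEM1, the first enzyme, being nearest at -2.50 ± 0.76 (adjusted p = 0.0618), followed by HMX1, the heme oxygenase, at -1.81 ± 0.60 (adjusted p = 0.0856).

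Of 31 respiratory chain and ATP synthase genes 3 rose and 1 fell, with a median of -0.01. The 12.9% called was near the 11.9% of all ORFs. ATP5, the stalk subunit of ATP synthase, read 3.83 and 4.17 in hypoxia and 0.225 and 0.259 in air, 16.6-fold higher in hypoxia (4.05 ± 0.49, adjusted p = 0.000626). QCR10, a small subunit of complex III, rose 9.91-fold at 4.52 and 3.86 in hypoxia and 0.334 and 0.533 in air (3.31 ± 0.59, adjusted p = 0.00515), and ATP1, the catalytic core's alpha subunit, rose 7.14-fold at 3.11 and 2.82 in hypoxia and 0.587 and 0.293 in air (2.84 ± 0.62, adjusted p = 0.0126). ATP15, the epsilon subunit of the same ATP synthase, went down to a dim signal at 0.0654 and 0.0129 in hypoxia and 0.294 and 0.671 in air (adjusted p = 0.0115). QCR7 (1.13 ± 0.45, adjusted p = 0.154) and SDH1 (1.44 ± 0.58, adjusted p = 0.168) were nearest among the rest. QCR10 lost its call without air array A, ATP1 did so without hypoxia array A or B or air array B, and ATP15 without hypoxia array B or air array B and under 2 other settings. In the citrate and glyoxylate cycles 2 of 19 fell (10.5%) and 0 rose (1 unadjusted), where 6.84% of all ORFs fell. CIT2, the peroxisomal citrate synthase, read 0.0652 and 0.0820 in hypoxia and 1.49 and 1.40 in air and fell 19.8-fold (-4.31 ± 0.62, adjusted p = 0.00110), and KGD2 of the 2-oxoglutarate dehydrogenase read 0.0379 and 0.0322 in hypoxia and 0.706 and 0.299 in air (adjusted p = 0.00322). Malate synthase MLS1 was at 1.82 ± 0.69 (adjusted p = 0.156) and fumarase FUM1 at -1.02 ± 0.69 (adjusted p = 0.468).

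**Figure D3:**
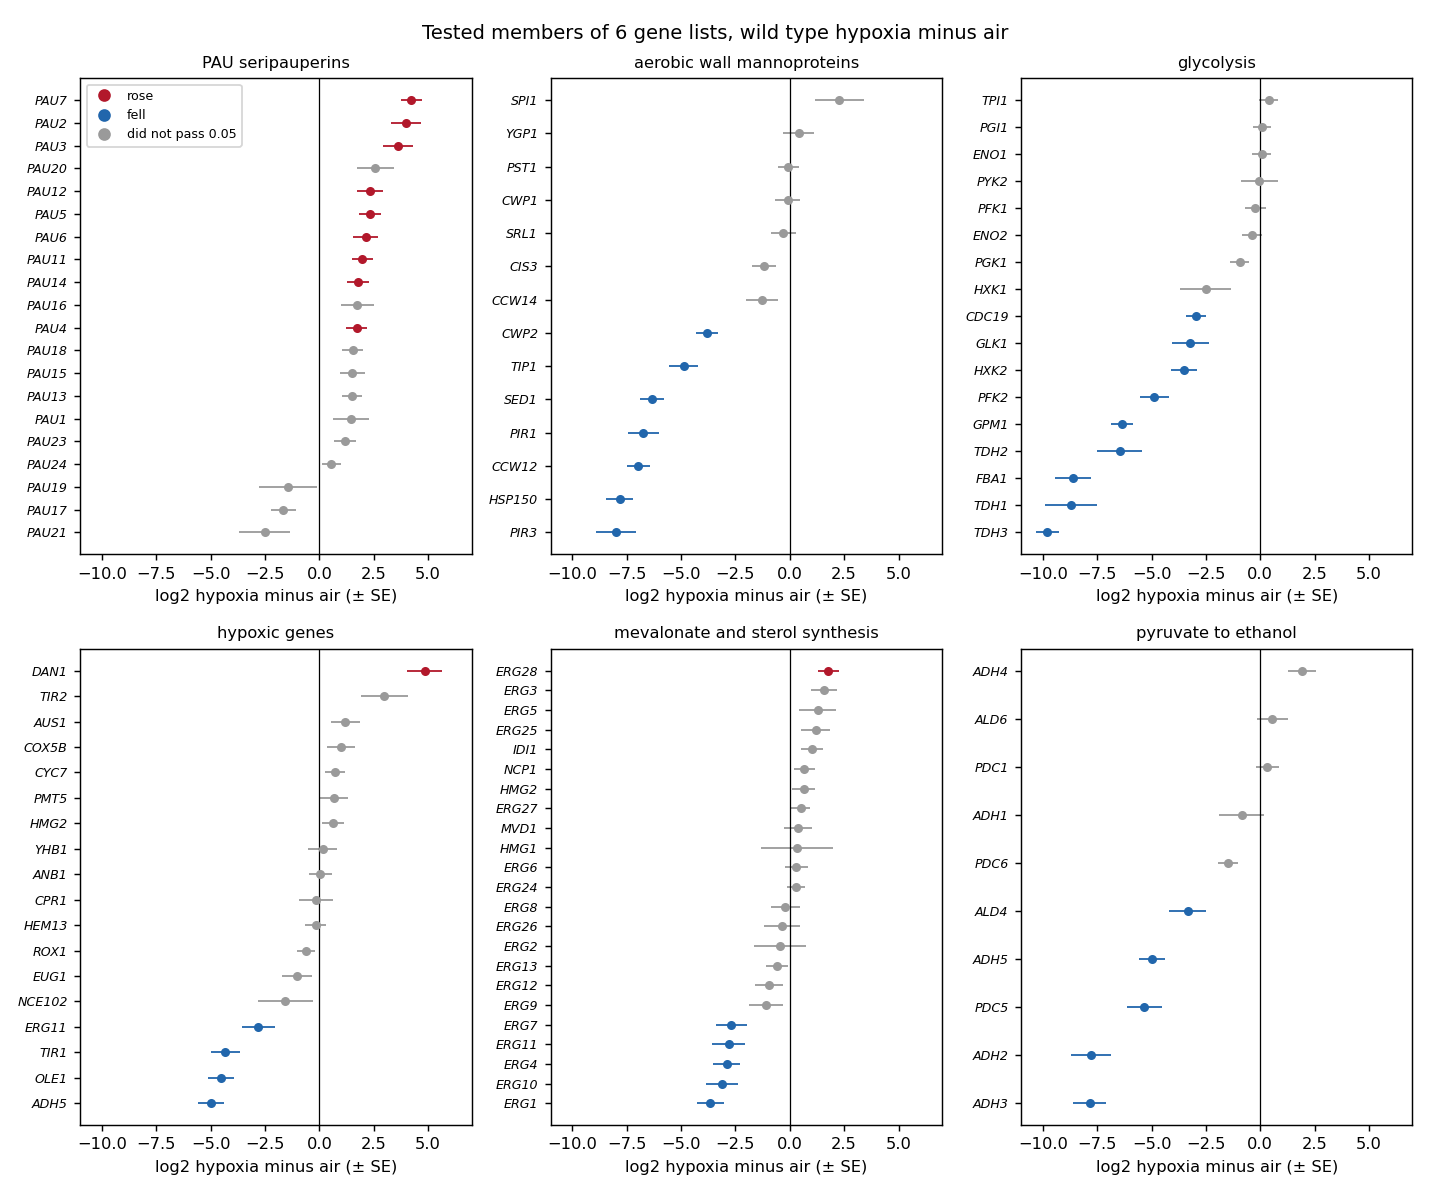
Log2 difference, hypoxia minus air, of each tested member of 6 gene lists, with bars for 1 SE and red, blue and grey for rises, falls and members that did not pass. Glycolysis splits into 9 genes that fell and 8 near or below 0 that did not pass, and the hypoxic genes lie on both sides of 0.

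Glycolysis had the highest share of falls among the lists, with its genes divided step by step. Of 17 glycolytic genes 9 fell and 0 rose (0 unadjusted), with a median of -2.96. The list is bright: 12 of the 17 lay in the brightest 10% of air signals, and 7 of those 12 fell, where 26.6% of all ORFs that bright did. At the top of the pathway HXK2, the main hexokinase, read 0.0768 and 0.106 in hypoxia and 1.25 and 0.833 in air (-3.50 ± 0.59, adjusted p = 0.00286), while PGI1, the next enzyme, read 2.09 and 1.98 in hypoxia and 2.25 and 1.67 in air (0.07 ± 0.43, adjusted p = 0.959). The 2 subunits of phosphofructokinase parted: PFK2 read 0.111 and 0.0553 in hypoxia and 2.51 and 2.14 in air and fell 29.5-fold (adjusted p = 0.000842), and PFK1 read 1.78 and 2.26 in hypoxia and 2.29 and 2.43 in air (-0.23 ± 0.48, adjusted p = 0.853). FBA1, the aldolase, read 0.110 and 0.215 in hypoxia and 49.7 and 73.2 in air, a fall of 392-fold (-8.62 ± 0.84, adjusted p = 0.000262), whereas TPI1, the isomerase that handles the aldolase's product, read 17.6 and 21.2 in hypoxia and 14.4 and 15.1 in air (0.39 ± 0.43, adjusted p = 0.691). All 3 glyceraldehyde-3-phosphate dehydrogenase probes fell, and each was within 10% of the brightest value on at least 1 air array. TDH3 read 0.118 and 0.142 in hypoxia and 135 and 97.3 in air (adjusted p = 2.35e-05). TDH2 read 1.01 and 1.58 in hypoxia and 112 and 112 in air (adjusted p = 0.00200) and TDH1 read 1.00 and 0.0741 in hypoxia and 97.3 and 135 in air (adjusted p = 0.00115). These 3 genes are close in sequence. PGK1, which follows them, read 14.1 and 12.8 in hypoxia and 31.0 and 21.8 in air (-0.95 ± 0.43, adjusted p = 0.227). GPM1, the phosphoglycerate mutase, read 0.636 and 1.11 in hypoxia and 68.7 and 68.7 in air and fell 81.7-fold (-6.35 ± 0.50, adjusted p = 0.000168), and the enolases after it did not pass, ENO1 at 46.3 and 32.1 in hypoxia and 38.1 and 35.6 in air (0.07 ± 0.43) and ENO2 at 16.9 and 20.0 in hypoxia and 29.6 and 19.4 in air (-0.38 ± 0.46). CDC19, the main pyruvate kinase, read 0.847 and 1.14 in hypoxia and 8.92 and 6.53 in air and fell 7.78-fold (-2.96 ± 0.44, adjusted p = 0.00140), and GLK1, the glucokinase, was the remaining gene to fall at 0.119 and 0.0452 in hypoxia and 0.536 and 0.868 in air (adjusted p = 0.0346). HXK1, the second hexokinase, was at -2.51 ± 1.17 (adjusted p = 0.240). GLK1 lost its call without any 1 of the 4 arrays and under 4 other settings. Neighbouring steps of 1 pathway thus read very differently, the 392-fold fall of FBA1 standing beside TPI1 at about its air level. The count was 8 without any 1 of the arrays.

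After pyruvate, 5 of 10 genes of ethanol formation and acetaldehyde oxidation fell and 0 rose (1 unadjusted), where 6.84% of all ORFs fell. This list is bright as well: 7 lay in the brightest 10% of air signals. Of those 7, 4 fell, where 26.6% of all ORFs that bright did. ADH2, the glucose-repressed isozyme that oxidises ethanol, read 0.117 and 0.0838 in hypoxia and 24.1 and 20.0 in air, 222-fold lower in hypoxia (-7.79 ± 0.91, adjusted p = 0.000355), and the mitochondrial ADH3 read 0.0312 and 0.0680 in hypoxia and 12.4 and 9.14 in air (adjusted p = 0.000156). ALD4, the mitochondrial aldehyde dehydrogenase, fell at 0.0903 and 0.0300 in hypoxia and 0.657 and 0.425 in air (adjusted p = 0.0260), and ADH5 is given above. ADH1, the main fermentative isozyme and close to ADH2 in sequence, read 21.8 and 14.2 in hypoxia and 35.6 and 28.3 in air (-0.85 ± 1.03, adjusted p = 0.717). Pyruvate decarboxylases likewise differed: PDC5 fell 40.2-fold at 0.230 and 0.0805 in hypoxia and 5.53 and 5.39 in air (-5.33 ± 0.82, adjusted p = 0.00226), while PDC1, the main one, read 3.58 and 4.59 in hypoxia and 3.93 and 2.69 in air (0.32 ± 0.52, adjusted p = 0.805). ADH4 was above air (1.94 ± 0.64, adjusted p = 0.0931) and PDC6 below it (-1.48 ± 0.45, adjusted p = 0.0615), neither passing. PDC5 lost its call with zeros kept at a floor, and ALD4 did so without hypoxia array B or air array A or B and under 2 other settings.

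Of 10 hexose transporters and sensors with a value on all arrays, of 18 listed, 3 fell and 0 rose (0 unadjusted). Across all ORFs 6.84% fell. In this list 2 genes lay in the brightest 10% of air signals and 2 of these fell, where 26.6% of all ORFs did. HXT1, the low-affinity transporter induced by high glucose, read 0.0894 and 0.0703 in hypoxia and 10.5 and 9.51 in air, a fall of 126-fold (-6.98 ± 0.44, adjusted p = 2.59e-05). HXT3, a low-affinity transporter as well, read 0.106 and 0.421 in hypoxia and 11.6 and 8.05 in air and fell 45.7-fold (-5.51 ± 0.61, adjusted p = 0.000303). HXT2, of intermediate affinity, read 0.0298 and 0.0330 in hypoxia and 0.437 and 0.374 in air (adjusted p = 0.0151), both hypoxia signals being dim. Transporters of low glucose did not pass, such as HXT7 at 1.67 and 1.13 in hypoxia and 1.61 and 1.88 in air (-0.35 ± 0.55), nor did HXT16 (0.99 ± 0.57, adjusted p = 0.365) or HXT5 (-1.91 ± 1.21, adjusted p = 0.430). HXT2 lost its call without any 1 of the 4 arrays and under 1 other setting. Glycerol synthesis and fumarate reduction, by which anaerobic yeast disposes of excess NADH, had 0 of 12 genes past the threshold (1 higher and 1 lower unadjusted). OSM1, a fumarate reductase, was nearest at -2.29 ± 0.80 (adjusted p = 0.114), then the glycerol kinase GUT1 at 1.16 ± 0.51 (adjusted p = 0.207).

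Of 47 genes of amino acid synthesis 15 fell and 0 rose (0 unadjusted), where 6.84% of all ORFs fell, and 32 did not pass. In all, 8 of the 47 were above air. In the brightest 10% of air signals lay 13, of which 6 fell, where 26.6% of all ORFs that bright did. The median of the list was -0.86. ILV6, the regulatory subunit of the first enzyme of branched-chain synthesis, read 0.0640 and 0.0848 in hypoxia and 3.21 and 2.60 in air, 39.2-fold lower in hypoxia (-5.29 ± 0.46, adjusted p = 0.000104). LEU4, the first enzyme of the leucine branch, read 0.0977 and 0.200 in hypoxia and 4.15 and 2.99 in air and fell 25.2-fold (-4.66 ± 0.56, adjusted p = 0.000456), and LEU1, the next enzyme, was not detected on either hypoxia array against deposited values of 1.87 and 3.24 in air. ARO4, which starts aromatic synthesis, read 0.121 and 0.0660 in hypoxia and 1.57 and 1.57 in air and fell 17.5-fold (-4.13 ± 0.47, adjusted p = 0.000319). In each of these 3 tested genes the replicates lay closer together than the conditions. LEU9, a second form of LEU4, was at -3.50 ± 1.00 (adjusted p = 0.0522) and ARG1, the argininosuccinate synthase, at -1.91 ± 0.63 (adjusted p = 0.0988). Without any 1 of the arrays the falls numbered 10 or 11. BY4741 lacks working LEU2 and HIS3 genes, so both groups drew leucine and histidine from the medium.

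Sulfur and methionine genes gave 8 falls and 0 rises (2 unadjusted) among 28, where 6.84% of all ORFs fell. In the brightest 10% of air signals lay 8 of the 28, and 5 of these fell, where 26.6% of all ORFs did. SAM1, an S-adenosylmethionine synthetase, read 0.140 and 0.0605 in hypoxia and 16.2 and 16.9 in air, a fall of 180.3-fold (-7.49 ± 0.60, adjusted p = 0.000112). MET14, the adenylylsulfate kinase of sulfate assimilation, read 0.315 and 0.215 in hypoxia and 3.79 and 4.43 in air and fell 15.7-fold (-3.98 ± 0.53, adjusted p = 0.000709), and MHT1, the S-methylmethionine methyltransferase, reached 0.0492 and 0.0555 in hypoxia and 1.34 and 1.20 in air (adjusted p = 0.000406). STR3, a cystathionine beta-lyase, lay above air at 4.44 and 6.02 in hypoxia and 1.03 and 1.15 in air (2.25 ± 0.66, adjusted p = 0.0516), as did MET32, an activator of the pathway, at 6.31 and 6.38 in hypoxia and 0.973 and 1.14 in air (2.59 ± 0.91, adjusted p = 0.107), without passing. Among 15 permeases 4 fell with 0 rises (1 unadjusted), where 6.84% of all ORFs fell. The other 11 did not pass, and 4 were above air. CAN1, the arginine permease, read 0.0296 and 0.0366 in hypoxia and 1.83 and 1.56 in air (adjusted p = 0.000108), LYP1, the lysine permease, 0.0277 and 0.0751 in hypoxia and 1.38 and 1.26 in air (adjusted p = 0.000608), and BAP3, for branched-chain amino acids, 0.0602 and 0.0315 in hypoxia and 1.74 and 0.287 in air (adjusted p = 0.00738), each with a hypoxia signal too dim for a fold. HIP1, the histidine permease, was at -2.73 ± 0.79 (adjusted p = 0.0556) and GNP1, for glutamine, at 1.52 ± 0.52 (adjusted p = 0.104). BAP3 lost its call without hypoxia array B or air array A and under 3 other settings. In purine synthesis ADE6, the formylglycinamidine ribonucleotide synthetase, rose 7.62-fold at 1.35 and 2.29 in hypoxia and 0.305 and 0.174 in air (2.93 ± 0.54, adjusted p = 0.00628) and IMD4, an IMP dehydrogenase, fell at 0.0190 and 0.0333 in hypoxia and 1.91 and 1.79 in air (adjusted p = 0.00155), with ADE2 at 1.54 ± 0.67 (adjusted p = 0.207) and ADE12 at 0.79 ± 0.56 (adjusted p = 0.490). ADE6 lost its call without hypoxia array B or air array B and under 1 other setting, and IMD4 did so with zeros kept at a floor.

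Metal genes went in opposite directions. Of 10 zinc regulon genes, targets of the zinc-sensing activator Zap1, 2 rose and 2 fell, against 5.09% and 6.84% of all ORFs. ZPS1, a secreted protein of zinc-starved cells, read 10.1 and 16.0 in hypoxia and 0.0819 and 0.0538 in air (adjusted p = 0.00132), dim in air and bright on both hypoxia arrays. ZRT2, the low-affinity zinc importer, read 2.73 and 3.60 in hypoxia and 0.509 and 0.370 in air and rose 7.23-fold (2.85 ± 0.48, adjusted p = 0.00354). ZRT1, the high-affinity importer, read 0.0698 and 0.137 in hypoxia and 2.73 and 2.68 in air, a fall of 27.7-fold (-4.79 ± 1.34, adjusted p = 0.0475), and the vacuolar zinc transporter ZRC1 read 0.0582 and 0.0337 in hypoxia and 0.552 and 0.762 in air (adjusted p = 0.00630). ZAP1 itself was at -1.81 ± 0.80 (adjusted p = 0.209). ZRT2 lost its call with zeros kept at a floor, ZRC1 did so without hypoxia array B or air array B, and ZRT1 without any 1 of the 4 arrays and under 5 other settings. Among 18 iron and copper genes 1 rose and 3 fell, against 5.09% and 6.84% of all ORFs. CUP1-1, the copper metallothionein, read 17.9 and 14.9 in hypoxia and 0.575 and 0.759 in air, 24.7-fold higher in hypoxia (4.63 ± 1.01, adjusted p = 0.0122). ARN2, a siderophore transporter, read 0.0824 and 0.0764 in hypoxia and 1.66 and 1.55 in air and fell 20.2-fold (-4.34 ± 0.51, adjusted p = 0.000530). FTR1, the high-affinity iron permease, fell 9.04-fold at 0.162 and 0.0669 in hypoxia and 1.09 and 0.816 in air (adjusted p = 0.0113), and FIT3, a wall mannoprotein that retains siderophores, fell 5.10-fold at 1.00 and 0.736 in hypoxia and 5.11 and 3.74 in air (-2.35 ± 0.53, adjusted p = 0.0171). The copper transporter CTR3 was at -2.14 ± 0.86 (adjusted p = 0.179) and ARN1 at -1.32 ± 0.58 (adjusted p = 0.211). CUP1-1 and FIT3 lost their calls without any 1 of the 4 arrays and under 1 other setting, and FTR1 did so without hypoxia array B or air array A. In the phosphate regulon 0 of 13 passed (1 higher and 0 lower unadjusted), PHM8 at 1.13 ± 0.50 (adjusted p = 0.210) and PHO5, the secreted acid phosphatase, at -1.27 ± 0.59 (adjusted p = 0.245) being nearest.

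Defence against peroxide and the thiol systems also divided, with 2 rises and 4 falls among 21, against 5.09% and 6.84% of all ORFs. GPX2, a peroxidase of the glutathione peroxidase family, read 11.4 and 12 in hypoxia and 0.413 and 0.730 in air, a rise of 21.3-fold (4.41 ± 0.47, adjusted p = 0.000343). TSA2, a minor peroxiredoxin, read 2.95 and 1.58 in hypoxia and 0.360 and 0.484 in air and rose 5.18-fold (2.37 ± 0.55, adjusted p = 0.0161). TRX2, a cytosolic thioredoxin, read 0.107 and 0.120 in hypoxia and 2.56 and 2.61 in air and fell 22.9-fold (-4.52 ± 0.65, adjusted p = 0.00110), and its reductase TRR1 read 0.167 and 0.0625 in hypoxia and 1.68 and 1.73 in air and fell 16.6-fold (-4.06 ± 0.57, adjusted p = 0.00104). TRR2, the mitochondrial reductase and a near copy of TRR1, followed at 0.0369 and 0.105 in hypoxia and 1.62 and 1.75 in air (adjusted p = 0.000459). AHP1, an abundant peroxiredoxin, was at 57.3 and 46.3 in hypoxia and 20.0 and 29.6 in air (1.08 ± 0.46, adjusted p = 0.192), and CTT1, the cytosolic catalase, at 1.27 ± 0.57 (adjusted p = 0.222). TSA2 lost its call without hypoxia array A or air array A or B.

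General stress genes had 2 rises and 0 falls (2 unadjusted) among 20, and 14 of the 20 were above air. The 2 rises were 10% of the list, where 5.09% of all ORFs rose. PAI3, an inhibitor of the vacuolar protease Pep4, read 5.37 and 3.36 in hypoxia and 0.277 and 0.161 in air, 20.2-fold higher in hypoxia (4.33 ± 0.75, adjusted p = 0.00338), and the aldehyde dehydrogenase ALD3 read 1.33 and 2.49 in hypoxia and 0.146 and 0.0411 in air (adjusted p = 0.0454). SSA4, a heat-inducible Hsp70, was at 1.99 ± 0.60 (adjusted p = 0.0578) and HSP104, the disaggregase, at 1.50 ± 0.45 (adjusted p = 0.0581). Among 22 chaperones of the cytosol and reticulum 3 fell and 0 rose (0 unadjusted), where 6.84% of all ORFs fell, and the 3 were Hsp70 proteins. All 3 were among the 10 members in the brightest 10% of air signals, where 26.6% of all ORFs fell. SSB2, which works at the ribosome, read 0.159 and 0.175 in hypoxia and 13.0 and 15.7 in air and fell 85.6-fold (-6.42 ± 0.63, adjusted p = 0.000168). SSA1 read 2.61 and 2.83 in hypoxia and 23.3 and 16.7 in air and fell 7.24-fold (-2.86 ± 0.52, adjusted p = 0.00430), with its near copy SSA2 at 0.207 and 0.0292 in hypoxia and 16.0 and 13.6 in air (adjusted p = 0.000332). Mitochondrial HSP60 was at -1.88 ± 0.64 (adjusted p = 0.103) and SSE2, an Hsp110, at 1.70 ± 0.95 (adjusted p = 0.350). ALD3 lost its call without any 1 of the 4 arrays and under 5 other settings. Of 13 reserve carbohydrate genes the trehalose enzymes TPS1, at 0.0263 and 0.0236 in hypoxia and 1.55 and 1.07 in air (adjusted p = 0.0104), and TPS2, at 0.0537 and 0.0856 in hypoxia and 2.50 and 1.62 in air (adjusted p = 0.00469), fell and 0 rose (0 unadjusted), with the glycogen synthase GSY1 at -2.44 ± 0.70 (adjusted p = 0.0538) and the debranching enzyme GDB1 at -2.22 ± 1.34 (adjusted p = 0.396). TPS1 lost its call without any 1 of the 4 arrays and under 1 other setting, and TPS2 did so without hypoxia array A.

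Of 116 cytosolic ribosomal protein genes 7 fell and 2 rose, against 6.84% and 5.09% of all ORFs. This list too is bright in air, and 5 of its 66 members in the brightest 10% fell, where 26.6% of all ORFs did. RPP2A, an acidic stalk protein, read 0.180 and 0.121 in hypoxia and 7.25 and 5.68 in air and fell 43.5-fold (-5.44 ± 0.58, adjusted p = 0.000266), and its partner RPP0 read 0.0384 and 0.0317 in hypoxia and 8.58 and 7.81 in air (adjusted p = 0.000158). RPS20 reached 0.0504 and 0.141 in hypoxia and 2.10 and 1.85 in air (adjusted p = 0.000649). RPL4A rose 3.10-fold at 2.14 and 1.92 in hypoxia and 0.724 and 0.591 in air (1.63 ± 0.44, adjusted p = 0.0417), and RPS8B read 3.62 and 3.07 in hypoxia and 0.0129 and 0.111 in air (adjusted p = 0.00308). RPL17A was at -2.41 ± 0.71 (adjusted p = 0.0543) and RPS28A at -3.30 ± 1.07 (adjusted p = 0.0868). Many of these genes have a near-identical twin, whose signals the probes may share. RPS8B lost its call in a fit of these 4 arrays alone, and RPL4A did so without any 1 of the 4 arrays and under 5 other settings.

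Of 69 mitochondrial ribosomal protein genes 8 rose and 2 fell, against 5.09% and 6.84% of all ORFs. In all, 52 of the 69 were above air, with a median of 0.48. MRPL8 read 9.79 and 6.22 in hypoxia and 0.340 and 0.184 in air, a rise of 31.1-fold (4.96 ± 0.53, adjusted p = 0.000266). MRPS5 read 16.0 and 19.1 in hypoxia and 0.790 and 0.858 in air and rose 21.2-fold (4.41 ± 0.50, adjusted p = 0.000465), and MRPL39 read 4.51 and 3.04 in hypoxia and 0.0875 and 0.212 in air and rose 27.2-fold (4.76 ± 0.57, adjusted p = 0.000601). These 3 are proteins of the organelle's large and small subunits, and none had a hypoxia value near its air values. MRPL35 fell 3.67-fold at 1.25 and 1.36 in hypoxia and 4.40 and 5.20 in air (-1.88 ± 0.42, adjusted p = 0.0136) and MRP51 fell to a dim signal at 0.0568 and 0.0134 in hypoxia and 0.452 and 0.307 in air (adjusted p = 0.00933). MRPL31 was at 1.71 ± 0.52 (adjusted p = 0.0614) and MRPS9 at -3.39 ± 1.10 (adjusted p = 0.0783). MRPS5 lost its call with zeros kept at a floor, MRP51 did so without hypoxia array B or air array A and under 2 other settings, and MRPL35 without any 1 of the 4 arrays and under 1 other setting. The rises numbered 4 or 5 without any 1 of the arrays.

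Among 42 translation factors and tRNA synthetases 4 fell (9.52%) and 0 rose (2 unadjusted), against 6.84% and 5.09% of all ORFs. DED81, the asparaginyl-tRNA synthetase, read 0.0839 and 0.131 in hypoxia and 2.83 and 2.64 in air and fell 26.1-fold (-4.71 ± 0.45, adjusted p = 0.000159). The alanyl-tRNA synthetase ALA1, at 0.0366 and 0.0108 in hypoxia and 1.24 and 1.77 in air (adjusted p = 0.00131), and the release factor SUP45, at 0.0561 and 0.0475 in hypoxia and 0.585 and 0.559 in air (adjusted p = 0.000473), fell to dim signals. MES1, the methionyl-tRNA synthetase, was at -1.88 ± 0.54 (adjusted p = 0.0538) and NIP1, of initiation factor eIF3, at -2.54 ± 0.79 (adjusted p = 0.0745). SUP45 lost its call on the deposited values or with arrays centred on their medians. Ribosome biogenesis had 3 rises and 3 falls among 59, and its 10.2% called was near the 11.9% of all ORFs. UTP5, of the small subunit processome, rose 11.7-fold at 2.01 and 3.55 in hypoxia and 0.240 and 0.215 in air (3.55 ± 0.65, adjusted p = 0.00585), NSR1, a nucleolin-like protein, rose 5.94-fold at 2.82 and 2.48 in hypoxia and 0.462 and 0.428 in air (adjusted p = 0.0192), and the helicase RRP3 read 0.815 and 0.548 in hypoxia and 0.113 and 0.0430 in air (adjusted p = 0.00748). NOP2, an rRNA methyltransferase, fell 7.09-fold at 0.125 and 0.0790 in hypoxia and 0.707 and 0.702 in air (-2.83 ± 0.75, adjusted p = 0.0392), with CBF5, the pseudouridine synthase, at 0.0246 and 0.0353 in hypoxia and 0.483 and 0.256 in air and SPB1, another methyltransferase, at 0.0264 and 0.0307 in hypoxia and 0.234 and 0.147 in air. The processome proteins UTP14 and SOF1 were at -1.80 ± 0.51 (adjusted p = 0.0577) and -2.73 ± 0.90 (adjusted p = 0.0989). UTP5 lost its call without hypoxia array B and under 2 other settings, RRP3 did so without hypoxia array A or air array B, NSR1 without any 1 of the 4 arrays and under 1 other setting, CBF5 without hypoxia array A or air array A and under 1 other setting, SPB1 without hypoxia array A or B or air array A, and NOP2 without any 1 of the 4 arrays and under 5 other settings. Of 30 RNA polymerase subunits 0 passed (1 higher and 1 lower unadjusted), RPB5, shared by the nuclear polymerases, being at 1.65 ± 0.51 (adjusted p = 0.0722) and RPA14, of polymerase I, at -1.04 ± 0.44 (adjusted p = 0.184).

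Those protein turnover and traffic genes that passed were lower in hypoxia, where 6.84% of all ORFs fell. The share was 9.09% in the proteasome, 7.69% in the vacuolar ATPase and 20% in secretory coat and translocon genes, the first 2 being near that of all ORFs. Of 33 proteasome genes 3 fell and 0 rose (3 unadjusted): RPN8, of the regulatory lid, by 41.4-fold at 0.156 and 0.0635 in hypoxia and 4.26 and 3.98 in air (-5.37 ± 0.86, adjusted p = 0.00289), the ATPase RPT1 at 0.0551 and 0.141 in hypoxia and 1.28 and 1.36 in air (adjusted p = 0.00237) and the core subunit PRE2 at 0.0307 and 0.0794 in hypoxia and 0.902 and 0.550 in air (adjusted p = 0.00884). Most of the proteasome list, 23 of 33, was above air, and its median was 0.34. PRE7, another core subunit, was at 1.14 ± 0.47 (adjusted p = 0.176) and RPN13, a ubiquitin receptor, at 1.22 ± 0.51 (adjusted p = 0.181). Secretory coat and translocon genes had 4 falls and 0 rises (0 unadjusted) of 20. SEC61, the translocon channel, read 0.114 and 0.271 in hypoxia and 1.79 and 1.96 in air and fell 10.7-fold (-3.42 ± 0.55, adjusted p = 0.00219), RET3 of the COPI coat fell 9.13-fold at 0.0681 and 0.0496 in hypoxia and 0.625 and 0.449 in air (adjusted p = 0.00275), and SEC13 of the COPII coat fell 5.57-fold at 0.234 and 0.189 in hypoxia and 1.23 and 1.11 in air (adjusted p = 0.00815). SEC21 of COPI was at -2.93 ± 0.85 (adjusted p = 0.0507) and SEC24 of COPII at -2.39 ± 0.94 (adjusted p = 0.151). PRE2 lost its call without hypoxia array A or air array A, and SEC13 did so without hypoxia array B or air array A. Of 13 vacuolar ATPase genes VMA2, a subunit of the catalytic head, fell 5.53-fold at 0.0803 and 0.0940 in hypoxia and 0.430 and 0.536 in air (-2.47 ± 0.52, adjusted p = 0.0101) and 0 rose (1 unadjusted), with VMA7 at -1.73 ± 0.61 (adjusted p = 0.111) and VMA8 at 1.24 ± 0.50 (adjusted p = 0.167). VMA2 lost its call without hypoxia array A or B or air array B.

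Cell cycle and cytoskeleton lists were near the background. Of 32 DNA replication genes 1 rose and 2 fell: RFA1, of the single-strand binding complex, rose 45.9-fold at 7.57 and 8.67 in hypoxia and 0.361 and 0.0865 in air (5.52 ± 1.03, adjusted p = 0.00652), the ribonucleotide reductase subunit RNR4 fell at 0.0760 and 0.0316 in hypoxia and 3.17 and 3.47 in air (adjusted p = 0.000129) and the helicase subunit MCM7 at 0.0799 and 0.0387 in hypoxia and 0.196 and 0.344 in air (adjusted p = 0.0158). CDC9, the ligase, was at -1.78 ± 0.54 (adjusted p = 0.0748) and MCM6 at 1.76 ± 0.56 (adjusted p = 0.0909). Among 17 cyclins and partners the kinase CDC28 rose 12.9-fold at 5.32 and 5.85 in hypoxia and 0.377 and 0.497 in air (3.69 ± 0.79, adjusted p = 0.0132) and the S-phase cyclin CLB5 fell at 0.0278 and 0.00921 in hypoxia and 0.475 and 0.752 in air (adjusted p = 0.00416), with FAR1, a kinase inhibitor, at -1.76 ± 0.60 (adjusted p = 0.111) and CLB6, the other S-phase cyclin, at 1.11 ± 0.60 (adjusted p = 0.341). CAP1, of the actin capping complex, was the 1 fall of 22 cytoskeletal genes, 9.30-fold at 0.164 and 0.118 in hypoxia and 1.12 and 1.50 in air (-3.22 ± 0.61, adjusted p = 0.00570), with the actin nucleation proteins LAS17 and ARC18 at -2.52 ± 0.77 (adjusted p = 0.0691) and -2.59 ± 0.88 (adjusted p = 0.0925). RFA1 lost its call without air array B, MCM7 did so without hypoxia array B or air array B and under 2 other settings, CDC28 without any 1 of the 4 arrays and under 2 other settings, CLB5 with zeros kept at a floor or in a fit of these 4 arrays alone, and CAP1 without hypoxia array B. Histones had 0 of 10 past the threshold (0 higher and 0 lower unadjusted), the H4 genes HHF1 and HHF2 standing at 1.19 ± 0.61 (adjusted p = 0.301) and 1.06 ± 0.65 (adjusted p = 0.411).

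BY4741 is of mating type a, and of 9 mating-type-specific genes tested 2 rose and 3 fell, against 5.09% and 6.84% of all ORFs. AGA2, the binding subunit of a-agglutinin, read 0.154 and 0.121 in hypoxia and 1.27 and 1.48 in air and fell (-3.33 ± 0.47, adjusted p = 0.00134). AGA1, which anchors it to the wall, read 3.60 and 2.15 in hypoxia and 0.488 and 0.371 in air and rose 6.54-fold (2.71 ± 0.54, adjusted p = 0.0115). The 2 parts of 1 adhesin thus moved oppositely. MFA2, an a-factor gene, read 0.215 and 0.0913 in hypoxia and 12 and 11.8 in air, a fall of 85.0-fold (-6.41 ± 1.39, adjusted p = 0.0142), the pheromone protease BAR1 read 0.103 and 0.0489 in hypoxia and 1.72 and 2.47 in air (adjusted p = 0.000649), and ASG7, an a-specific gene of pheromone signalling, rose 4.58-fold at 1.96 and 1.40 in hypoxia and 0.305 and 0.428 in air (adjusted p = 0.0300). STE2, the alpha-factor receptor, was at -2.05 ± 0.64 (adjusted p = 0.0749), and the alpha-specific SAG1, which an a strain does not use, at 1.03 and 1.03 in hypoxia and 0.589 and 0.849 in air (0.55 ± 0.55). AGA1 lost its call without hypoxia array A or air array A or B, ASG7 did so without any 1 of the 4 arrays and under 2 other settings, BAR1 and AGA2 with zeros kept at a floor, and MFA2 without any 1 of the 4 arrays and under 3 other settings. MCM1, the factor that activates a-specific genes, read 0.0714 and 0.186 in hypoxia and 8.87 and 10.1 in air and fell 81.9-fold (-6.36 ± 0.62, adjusted p = 0.000159). FIG1, a membrane protein of mating cells, read 6.08 and 6.48 in hypoxia and 0.0612 and 0.101 in air and rose 79.8-fold (6.32 ± 0.54, adjusted p = 0.000147).

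Of the marker genes that BY4741 is described as lacking in both groups, HIS3 read 0.496 and 0.497 in hypoxia and 0.600 and 0.880 in air and URA3 0.119 and 0.0609 in hypoxia and 0.190 and 0.127 in air (-0.55 ± 0.53 and -0.87 ± 0.92). Neither passed. The HIS3 signal was above the median of the positive values on each of the 4 arrays. The extent of the deletion and the stretch covered by the probe were not analysed here. LEU2 and MET17 had a 0 on at least 1 of the 4 arrays.

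Ranked by size among firmly measured ORFs, the largest rises were mostly genes outside these lists. YPR147C read 42.6 and 57.3 in hypoxia and 0.0677 and 0.521 in air (263-fold), FMT1, the formyltransferase of the mitochondrial initiator tRNA, 73.2 and 68.7 in hypoxia and 0.830 and 0.106 in air (239-fold), and MTQ2, a methyltransferase of release factor eRF1, 26.7 and 28.3 in hypoxia and 0.201 and 0.117 in air (179-fold). Every hypoxia value of these 3 was at least 20 times every air value. NFG1, a regulator of filamentous growth, read 30.2 and 23.3 in hypoxia and 0.151 and 0.232 in air (142-fold), MUD1, a U1 snRNP protein, 15.1 and 15.4 in hypoxia and 0.0962 and 0.267 in air (95.1-fold), and ROM1, an activator of the wall integrity GTPase Rho1, 11.0 and 8.80 in hypoxia and 0.121 and 0.0904 in air (94.2-fold). NET1, the nucleolar anchor of the mitotic phosphatase Cdc14, read 10.6 and 12.5 in hypoxia and 0.186 and 0.135 in air and rose 72.6-fold (6.18 ± 0.92, adjusted p = 0.00132). The other rises in the top 15 were FIG1, given above, ILM1, EMA19, YOL035C, YJL213W, YER134C, YDL026W and YDR262W, from 47.5-fold for the last to 130.3-fold for YOL035C. At the other end, YER138C, a frame of a Ty1 retrotransposon, read 0.0682 and 0.125 in hypoxia and 57.3 and 46.3 in air and fell 559-fold (-9.13 ± 0.93, adjusted p = 0.000220), and YJR027W, also of Ty1, read 0.224 and 0.264 in hypoxia and 21.2 and 18.7 in air and fell 81.9-fold. Ty1 copies are nearly identical, so such a probe may read many of them, which was not tested. The 2 probes parted after the 3 hour shift, at -10.3 for YER138C and -1.68 for YJR027W against air. YKR040C read 0.186 and 0.178 in hypoxia and 33.3 and 31.0 in air and fell 177-fold, and the other falls of the top 15 were FBA1, ADH2, SAM1, HXT1, CCW12, PIR1, SSB2, MFA2, MCM1, GPM1, SED1 and PSA1. ROM1 lost its call on the deposited values or with arrays centred on their medians. Of 268 tested probes whose names matched no RefSeq locus tag, 21 rose (7.84%) and 12 fell (4.48%).

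ORFs detected in 1 condition alone were taken apart from the test. In all, 51 ORFs were at exactly 0 on both air arrays and above 0 on both hypoxia arrays, and 27 were the reverse. Most were dim where detected: 16 of the 51 and 5 of the 27 lay above the 25th percentile of positive values on both arrays. ZIP2, a meiotic synapsis protein, had deposited values of 4.88 and 3.82 in hypoxia, MAM1, a meiosis I kinetochore protein, 3.89 and 3.24, and NPP1, a nucleotide pyrophosphatase, 3.29 and 2.94. These 3 stood apart from the next, YBR224W, at 0.942 and 0.918. CTR86 (0.737 and 1.21), YMR317W (1.07 and 0.565), MGA1, a protein resembling heat shock factor (0.501 and 0.447), YJL113W of a Ty4 element (0.425 and 0.316), THI13, of thiamine precursor synthesis (0.269 and 0.316), and AAC3 completed the first 10. FBP1, the gluconeogenic fructose bisphosphatase, was the other listed gene, at 0.0189 and 0.106. Among those found in air alone LEU1 led with 1.87 and 3.24 in air, followed by HPF1, a wall mannoprotein, at 1.46 and 1.08, YAR068W at 0.854 and 0.601, and YER034W at 0.583 and 0.297. VTC5, of vacuolar polyphosphate synthesis, had 0.321 and 0.199. YDR024W, IRC4, YBR220C, GGC1, the mitochondrial GTP carrier, and URA7, a CTP synthase, followed, the lower of their air values being 0.113 or less. A further 31 ORFs were at 0 on all 4 arrays and 896 were at 0 on some of them without either pattern. Without one of the arrays the first count was 86 (hypoxia A), 72 (hypoxia B), 385 (air A) or 146 (air B), and the second 50, 157, 55 or 76. Air array B, which had 647 zeros, thus gave 385 ORFs by itself.

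On the arrays labelled ixr1 null, the ORFs found in hypoxia alone in wild type were read again. Of the 51, 24 were higher on both null hypoxia arrays than on both null air arrays, and 4 were lower, where 29.3% of all ORFs were higher. AAC3 was at 0 on both null air arrays and had 1.08 and 1.20 on the null hypoxia arrays, 1 of 2 ORFs with the full pattern on both sets of arrays. Of the 27 found in air alone, 13 were higher on both null hypoxia arrays, where 29.3% of all ORFs were. Only 4 of the 27 were lower on both, where 29.8% of all ORFs were, so most did not repeat their wild type direction. LEU1 was among the 4 lower, with 0.0370 and 0.0450 in null hypoxia and 0.536 and 0.920 in null air.

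The same change of condition was then read on the 4 arrays labelled ixr1 null, none of which entered the wild type contrast. The IXR1 probe goes against that label: it read 0.524 and 1.01 on the null hypoxia arrays and 9.69 and 8.80 on the null air arrays, which is no lower than in wild type. Which stretch of the gene was deleted and which the probe covers was not analysed here. Of 559 ORFs called in wild type with a value on all 4 null arrays, 509 (91.1%) changed in the same direction there, against 56.1% of the 4285 ORFs not called. In their own test the null arrays called 660 of 5505 ORFs (12%), with 353 rises (6.41%) and 307 falls (5.58%), and 310 ORFs were called the same way in both, which is 55.5% of the wild type calls and 53.0% of the 585 null calls with a wild type value. Both tests shared the normalization and the spread of each ORF over all 12 arrays, so their calls were not fully separate. The median of ORFs that rose in wild type was 3.36 in wild type and 2.91 on the null arrays, and of those that fell -3.78 and -2.80. Across 4844 ORFs the differences in both genotypes had a Pearson correlation of 0.653 and a Spearman correlation of 0.416, the ORFs sharing arrays and therefore not being independent.

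**Figure D4:**
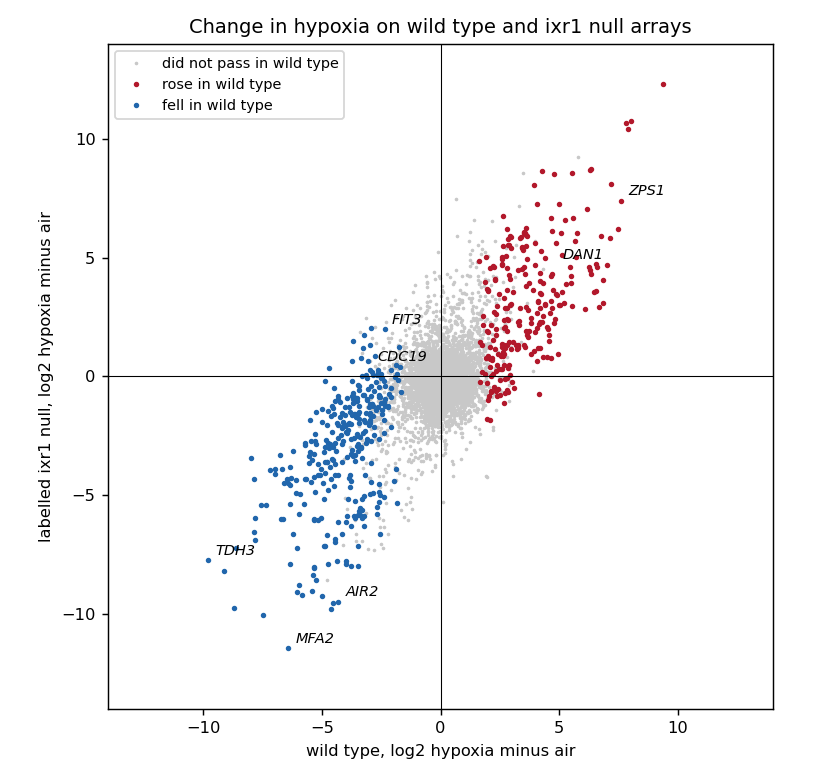
Log2 difference, hypoxia minus air, in wild type (x axis) and on the arrays labelled ixr1 null (y axis) for 4844 ORFs, coloured by the wild type call. Of the 559 coloured points 509 lie in the quadrants where both differences have the same sign, and FIT3 is the 1 ORF called in opposite directions.

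Gene by gene, the groups described above were met again to different degrees, and some were not met again. The PAU genes rose in 8 of 20 (median 1.81), DAN1 stood at 5.62 and TIR1 at -4.16, and the aerobic wall mannoproteins fell in 6 of 14. Glycolysis fell in 6 of 17, amino acid synthesis in 10 of 52 with 3 rises, and sulfur genes in 9 of 26 with 2 rises. Other lists went differently from wild type. Permeases had 4 rises and 2 falls among 17, with a median of 1.26, and general stress genes 0 rises and 3 falls among 20, with a median of -0.39. Sterol synthesis had 1 rise and 0 falls among 24, and the zinc regulon 4 rises and 0 falls among 11. For ZPS1 the null difference was 7.40, for GPX2 3.04 and for FBA1 -7.23. Other wild type calls were small there: OLE1 stood at -1.32, ERG1 at -1.08, HXT3 at -1.83, MRPL8 at 0.92, PAI3 at 0.80, SSA1 at 0.04 and TIP1 at -0.19. None of these 7 passed in the interaction of genotype and hypoxia, so a difference between genotypes is not shown for them. Mitochondrial ribosomal protein genes, of which 52 of 69 were above air in wild type, had a median of -0.43 on the null arrays, with 3 rises and 4 falls among 70. The median of all ORFs there was -0.20, or -0.03 on the deposited values, against 0.01 in wild type. Whether any of these lists differs between the genotypes was not tested.

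In that interaction, taken as the wild type difference minus the null difference, 7 of 4844 ORFs passed (0.145%), with 3 above 0 (0.0619%) and 4 below it (0.0826%), and 741 had an unadjusted p under 0.05. CDC19, the pyruvate kinase that fell in wild type, read 6.05 and 6.45 in null hypoxia and 2.11 and 3.00 in null air, a difference of 1.31, and its interaction was -4.27 ± 0.63 (adjusted p = 0.0449). SPP381, a splicing protein, was at 1.22 ± 0.49 in wild type and 6.07 on the null arrays (interaction -4.85 ± 0.70, adjusted p = 0.0449). MET5, a sulfite reductase subunit, was at -1.35 ± 0.52 in wild type and -6.05 on the null arrays (interaction 4.70 ± 0.73, adjusted p = 0.0452). FIT3 was the 1 ORF called in opposite directions, at -2.35 in wild type and 2.00 on the null arrays, and its interaction did not pass (adjusted p = 0.0583). The count of 7 depended on the fit: it was 0 on the deposited values, with arrays centred on their medians, with a term for the letter and without any 1 of the 8 arrays other than null hypoxia array A, where it was 17.

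The 3 hour shift was set against the same 2 air arrays, where 35 of 4672 ORFs passed (0.749%), 15 higher and 20 lower. A likeness to the overnight change is partly built in, since genes extreme against these air arrays are named here, and the values are given side by side as a description. After the shift FBA1 stood at -11.49, TDH3 at -10.68 and CCW12 at -10.31, whereas SED1 was at -1.89, PIR1 at -2.56 and CDC19 at -1.29, none of the last 3 passing. YPR147C was at 7.94, FMT1 at 7.56, MTQ2 at 1.11 and NFG1 at 0.34. SAM1 was at -2.27, HXT1 at -1.21 and GPX2 at -0.74. OLE1 was at -0.39 and ERG11 at -0.42, against -4.53 ± 0.59 and -2.82 ± 0.76 overnight. The shift differed from the overnight cultures in time, gas and described medium at once, and whether the 2 changes differ was not tested.

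Where an ORF lies was examined because rises were uneven over the genome, a pattern noticed in these data and given without a test. On chromosomes I to IV, 106 of 1195 tested ORFs rose (8.87%), on V to XII 104 of 2222 (4.68%) and on XIII to XVI 43 of 1552 (2.77%). Falls did not follow that order, with 5.69%, 7.34% and 7.02%. Chromosome I had 10 rises among 83 ORFs and chromosome XVI 3 among 378, and the share on I stayed above that on XVI without any 1 of the 4 arrays. On the null arrays the shares of rises over the 3 sets of chromosomes were 13.1%, 4.67% and 2.07%. Chromosome VI departed from this order, with 9% of its ORFs rising in wild type and 13.1% on the null arrays. Where each probe lay on the arrays was not analysed here, and its part in the calls was not tested. FMT1, MTQ2, MUD1, FIG1, YDL026W and YDR262W among the 15 largest rises lie on chromosomes II and IV. These chromosomes hold 349 and 632 of the 4969 tested ORFs, and the 6 genes are part of the rises counted above.

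**Figure D5:**
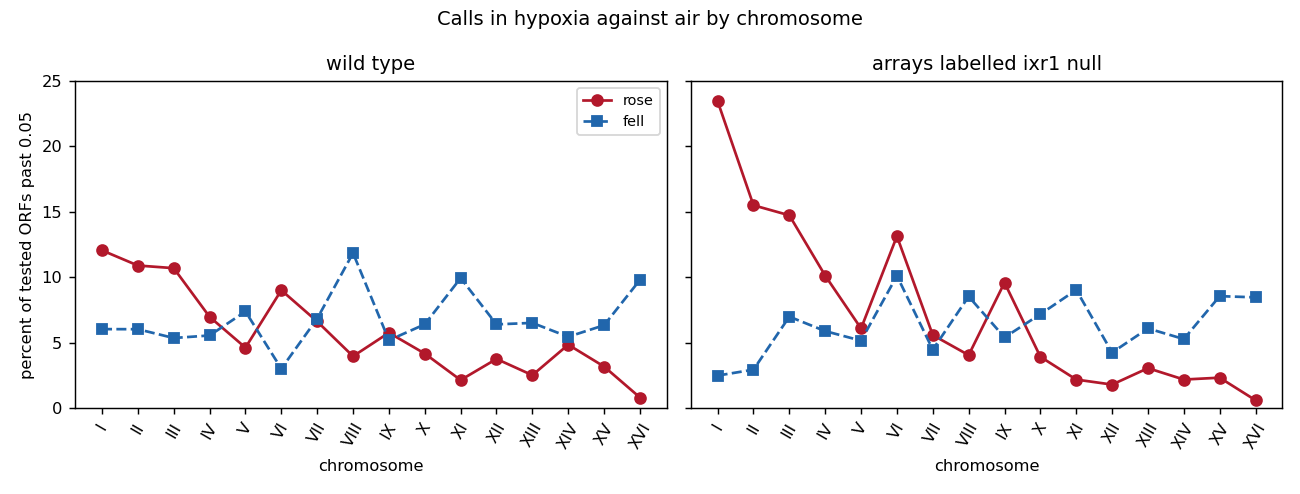
Percent of tested ORFs on each chromosome that rose (red circles) or fell (blue squares) in hypoxia against air, in wild type (left) and on the arrays labelled ixr1 null (right). In wild type 10 of 83 ORFs on chromosome I and 3 of 378 on XVI rose.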

How the data were processed

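Per the labels' protocols, total RNA was copied into cDNA primed with oligo-dT, labelled with radioactive phosphorus and hybridised to arrays of yeast ORF probes. The authors deposited 1 intensity per probe and array on a linear scale, each array scaled to a mean near 1. How background was taken off, and why some values are exactly 0, was not stated in the labels. Columns were assigned to samples by the sample names in the value table, and groups by the sample titles.

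Quantile normalization over the 12 arrays came first, while the deposited intensities still held their zeros. Only afterwards were those zeros treated as missing, and log2 was taken of the other values. Models with 1 mean per group were fitted with limma 3.58.1 (R 4.3.3, lmFit and eBayes) over ORFs with a value on every array of a contrast, and p-values were adjusted by Benjamini-Hochberg over all ORFs tested, at 0.05. An ORF with all values has 6 residual degrees of freedom. With 2 arrays a side, permuting labels exactly could never give a p under 0.05, so no such test was run. Symbols came from the RefSeq table by locus tag. The fit was tested on simulated data.

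The genes named were the 15 largest firmly measured changes in each direction, up to 3 called members per direction and 2 others of each gene list by p-value, a fixed set of oxygen genes, the 10 strongest ORFs found in 1 condition alone, and up to 6 interaction ORFs. Some genes that this rule selects are not reported here. Others named in counts, comparisons and the shift were chosen after their values were seen. The lists and comparisons were chosen with earlier results of these data known. Alternatives changed the normalization, the handling of zeros, the filter on dim ORFs, the arrays in the fit, the moderation of variances and the replicate letter, and left out each array. The precision is limited by the 2 arrays of each group.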

Additional observations from a re-analysis of the deposited data

Results flagged for a closer look

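In 7 ORFs the hypoxia change in wild type differed from that on the arrays labelled ixr1 null in limma's interaction term, given as the wild type difference minus the null difference ± SE in log2 units with 2 arrays a group. AIR2, a subunit of the nuclear RNA surveillance complex TRAMP, differed by 5.18 ± 0.67, with -4.31 in wild type and -9.48 on the null arrays. EEB1, an ethyl ester synthase, differed by -5.04 ± 0.66, with -4.69 in wild type and 0.35 on the null arrays. CDC19 differed by -4.27 ± 0.63, with -2.96 and 1.31. HSL7, a regulator of the mitotic entry kinase Swe1, differed by -5.17 ± 0.72, with -3.68 in wild type and 1.49 on the null arrays. SPP381 differed by -4.85 ± 0.70, with 1.22 and 6.07, YRB1, a Ran binding protein of nuclear transport, by 4.09 ± 0.63, with -2.54 and -6.63, and MET5 by 4.70 ± 0.73, with -1.35 and -6.05. The adjusted p was 0.0449 for each except MET5, at 0.0452. AIR2, EEB1, HSL7 and YRB1 had a signal too dim for a fold on at least 1 of the wild type or null arrays, which limits the sizes given. HSL7 read 0.0272 and 0.0134 in wild type hypoxia, and AIR2 0.0151 and 0.00832 in null hypoxia. The count of 7 was 0 under other settings given below.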

How the results depend on the processing

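The 593 wild type calls were 530 on the deposited values, 495 with arrays centred on their medians and 357 to 442 without any 1 of the 4 arrays. Against 660 calls, the ixr1 null comparison gave 427 on the deposited values, 402 with centred arrays and 388 to 520 without any 1 array. Against 7 calls, the interaction gave 0 on the deposited values, 0 with centred arrays, 52 without dim ORFs, 56 in a fit of the contrast's arrays alone, which are the 8 air and hypoxia arrays, 0 with variances moderated over all ORFs and 0 to 17 without any 1 array. The 51 ORFs found in hypoxia alone and the 27 found in air alone became 16 and 5 above the 25th percentile, and 72 to 385 and 50 to 157 without any 1 array. The cause of these moves was not tested, beyond the smaller number of arrays where 1 is left out. With the letter as a replicate block the wild type comparison called 633 ORFs, the ixr1 null one 718 and the interaction 0. Counts also rose in a fit of the 8 air and hypoxia arrays, to 780 in wild type and 864 in the ixr1 null. A fit of the contrast's arrays alone gave 653 and 586. Arrays of the same letter did not deviate together (correlation 0.0617), so the letters were not taken to pair the arrays. Of 133 named genes called, 76 kept their call wherever they could be tested (73 under all 13 alternatives, 3 under all except the one without dim ORFs), 57 lost it under at least 1 and 0 reversed. A further 47 were called under at least 1 alternative alone. Dim signals limit folds, and an exact 0 sets no size of change.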
